A study of Rattus norvegicus with 20 samples.

Results

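The 10 genes described here encode the core of the NLRP3 inflammasome, its interleukin 1 family products with their receptor and antagonist, tumor necrosis factor, and parts of the NF-kB system. They were taken by gene symbol from the 30560 genes of the expression table, and each of the 10 symbols matched 1 gene: Nlrp3, Casp1, Il1b, Il18, Il1rn, Il1r1, Tnf, Nfkb2, Nfkbia and Tnfaip3. The inflammasome is a cytosolic complex in which the sensor NLRP3 responds to cell damage and activates caspase-1, which cuts the precursors of interleukin 1 beta and interleukin 18 into their secreted forms. Interleukin 1 beta and tumor necrosis factor act through receptors that free NF-kB from its inhibitors, and NF-kB in turn induces many of the genes of the pathway, among them the inhibitor IkB alpha and the deubiquitinase A20, which shut the signal off. In kidney and heart these transcripts come from macrophages and also from tubule cells, fibroblasts and endothelial cells.

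Poly-A RNA sequencing covered cortex of kidney and left ventricle of heart in 10 hypertensive rats, all male and labelled WT, whose strain the labels do not name. All were fitted with a blood pressure telemeter at 8 weeks of age and then ate a diet with 4% NaCl for 3 weeks, so no group was without high salt. During that time a subcutaneous osmotic minipump gave 5 rats (RB030 to RB034) vehicle and 5 rats (RB035 to RB039) Maresin 1 (MaR1) at up to 1.3 µg/kg/day. MaR1 is a lipid mediator that macrophages make from docosahexaenoic acid, and the comparison asks whether it changed gene expression in either organ. The 20 libraries form 4 groups of 5, with each rat giving 1 kidney and 1 heart library.

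Values are FPKM (fragments corrected for the length of a gene and a size of the library), so levels can be compared between genes. Between 19383232 and 30342034 fragments per library were assigned to genes. The size that the values were divided by was larger than this total in every kidney and smaller in every heart. It was 34941948 against 27365595 in the kidney of RB030 and 20034314 against 24661779 in the heart of RB032. Differences between organs rest on that further scaling, and scaling to assigned fragments was not tried. The proximal tubule transporter Slc34a1 was at 876 to 1587 FPKM in the kidneys and 0.225 to 4.84 FPKM in the hearts, and the ventricular myosin light chain Myl2 at 1205 to 2276 FPKM in the hearts and at most 0.207 FPKM in the kidneys. Some libraries also held transcripts of neighbouring tissue. The atrial light chain Myl7 was at 151 to 784 FPKM in 5 hearts (RB031, RB033 and RB034 with vehicle, RB035 and RB038 with MaR1) and at 0.163 to 1.65 FPKM in the others. Urothelial transcripts were present in the kidneys of RB034, RB036, RB038 and RB039, and the kidney of RB039 held 120 FPKM of the adipocyte gene Adipoq. In whole tissue, fewer cells of a type and less RNA per cell cannot be told apart.

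NF-kB proteins bind a 10-base sequence written as 3 G, a purine, any 2 bases, 2 pyrimidines and 2 C. The 250 bases before the start of each gene were searched for it on both strands in RefSeq promoters of the build GRCr8. All 10 genes matched a window, and 4 held the sequence: Tnfaip3 at 3 places, and Nfkb2, Nfkbia and Il1r1 at 1 each. Of 33469 rat promoter windows of the same length, 6.33% held at least 1 match and 0.965% held 2 or more. The windows of the 3 NF-kB genes among them are shown because these are textbook examples of genes that NF-kB itself induces. Matches are in capitals, and 1 of the Tnfaip3 matches reads as a match on both strands.
Nfkbia, the gene of IkB alpha, chr6:78597073-78597322, minus strand: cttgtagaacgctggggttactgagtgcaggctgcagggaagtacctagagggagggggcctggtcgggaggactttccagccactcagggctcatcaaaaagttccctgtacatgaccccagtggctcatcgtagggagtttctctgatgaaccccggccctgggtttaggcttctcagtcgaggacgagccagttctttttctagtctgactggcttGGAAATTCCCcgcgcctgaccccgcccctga
Nfkb2, the gene of the p100 subunit, chr1:255108124-255108373, plus strand: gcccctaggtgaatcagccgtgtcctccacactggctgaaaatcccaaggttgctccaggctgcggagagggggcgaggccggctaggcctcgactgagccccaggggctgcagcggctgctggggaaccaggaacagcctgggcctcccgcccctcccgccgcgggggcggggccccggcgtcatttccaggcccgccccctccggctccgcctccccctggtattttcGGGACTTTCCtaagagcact
Tnfaip3, the gene of A20, chr1:15543980-15544229, minus strand: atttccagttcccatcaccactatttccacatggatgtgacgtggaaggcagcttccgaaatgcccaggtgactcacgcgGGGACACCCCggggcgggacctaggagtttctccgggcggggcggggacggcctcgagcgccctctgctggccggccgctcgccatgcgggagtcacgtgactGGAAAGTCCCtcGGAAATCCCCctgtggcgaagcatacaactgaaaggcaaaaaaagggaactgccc
The last base of each window is the base before the annotated start. The Nfkb2 match lies 20 to 11 bases before the start and the Nfkbia match 31 to 22 bases before it. Those of Tnfaip3 lie 170 to 161, 67 to 58 and 55 to 46 bases before it. A match describes the letters only, and a window with no match says nothing on whether NF-kB acts on the gene.

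The genes fell into the same broad order of level in both organs. Nfkbia was the most abundant, with a mean of 22.5 ± 4.998 FPKM in the kidneys and 63.6 ± 10.3 FPKM in the hearts (SD, n = 10 each). Nfkb2 followed at 9.81 ± 1.54 FPKM in kidney, and its 10 kidneys (8.26 to 13.5 FPKM) did not overlap those of any other member. In the hearts Il1r1 (14.2 ± 3.49 FPKM) and Nfkb2 (11.2 ± 0.769 FPKM) overlapped. Casp1 (3.39 ± 0.656), Il1r1 (3.13 ± 1.01) and Il18 (2.86 ± 0.803 FPKM) overlapped one another in the kidneys and had no order beyond their spread. Tnfaip3, Nlrp3, Il1rn and Il1b had means of 1.11 to 1.78 FPKM in kidney and 0.811 to 1.69 FPKM in heart. Tnf was the lowest, at 0.233 ± 0.125 FPKM in kidney and 0.502 ± 0.119 FPKM in heart, which rested on 3 to 26 fragments a library.

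**Figure D1:**
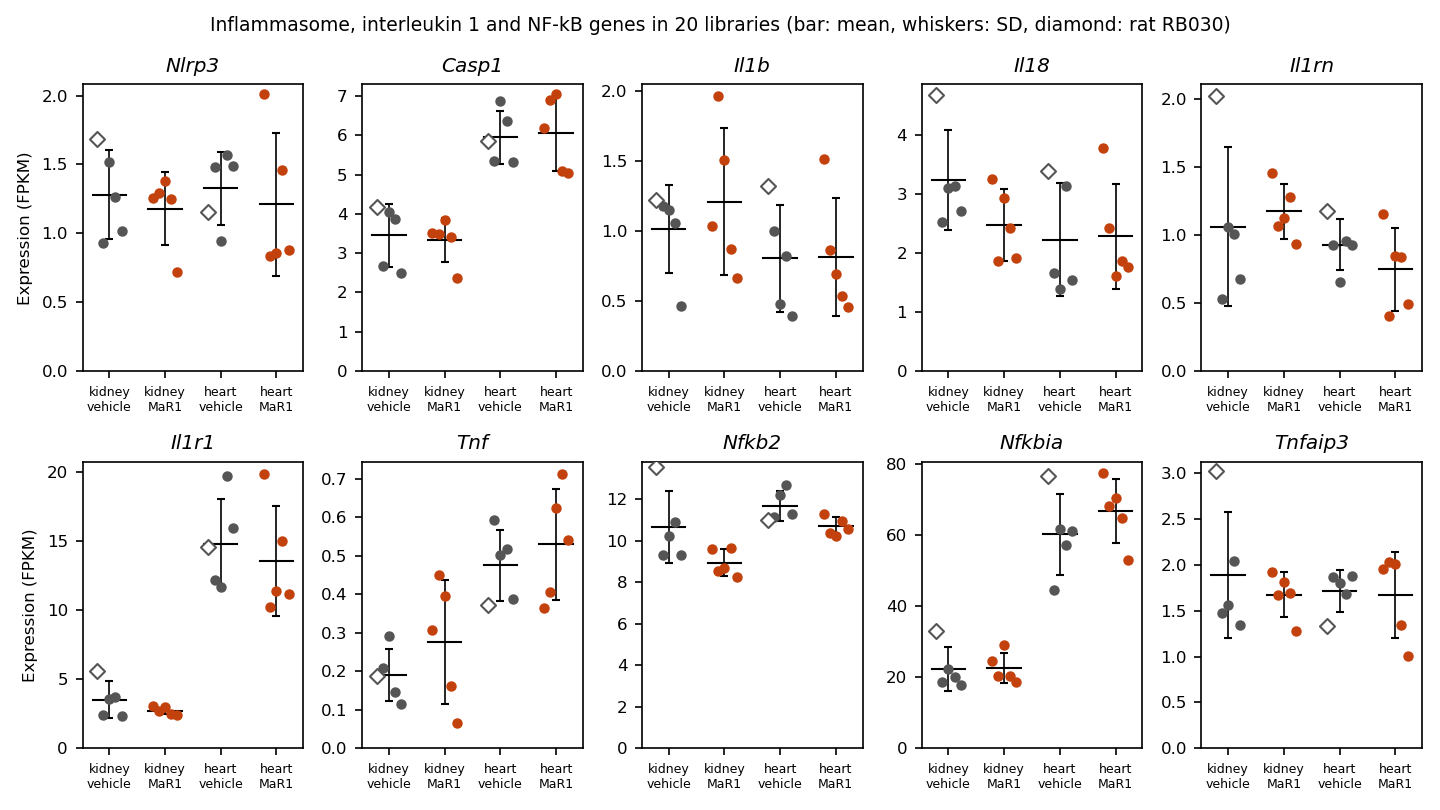
Expression in FPKM (vertical axes, from 0) of the 10 genes in the 4 groups of 5 libraries. Points are libraries, horizontal bars the group mean, whiskers the SD, and open diamonds rat RB030. MaR1 and vehicle groups overlap in every panel within an organ, while Il1r1, Nfkbia and Casp1 separate the organs. The kidney of RB030 is the highest kidney in 8 of the 10 panels, and how many other genes are highest in it was not counted.

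MaR1 changed none of these genes past the threshold in either organ. A gene was tested where its mean reached 1 FPKM over the libraries compared, with limma, and called where the adjusted p was under 0.05. In the kidney 9 of the 10 members were tested, Tnf falling below the filter, and 0 were called, where 0% of all 12446 genes tested were called. In the heart 7 were tested, Il1b, Il1rn and Tnf falling below, and 0 were called, again with a background of 0% of 12237 genes. At an unadjusted p under 0.05, limma gave 1 of the 9 members in kidney (background 6.75%, 840 genes) and 0 of 7 in heart (background 4.6%, 563 genes). A fit of limma voom on fragments, recovered as FPKM times gene length, also called 0 genes in each organ. All 10 members overlapped between the MaR1 and vehicle groups in both organs, where 1.23% of genes tested in kidney and 0.842% in heart did not overlap. The members' log2 differences ran from -0.32 to 0.16 in kidney, with 3 higher, 6 lower and a median of -0.08 (all genes 0.00), and from -0.14 to 0.16 in heart, with 3 higher, 4 lower and a median of -0.05 (all genes 0.01). The 95% intervals reached 0.22 to 0.51 on the log2 scale to each side in kidney and 0.13 to 0.56 in heart.

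Nlrp3, the sensor of the inflammasome (chr10:44328566-44352811 as the table gives it, build not given in the sources used here), was low in all libraries. The kidneys held 1.68, 0.930, 1.52, 1.26 and 1.01 FPKM with vehicle and 1.26, 1.29, 1.38, 1.25 and 0.717 FPKM with MaR1, each in order of rat number. The hearts held 1.15, 1.48, 0.945, 1.56 and 1.49 FPKM with vehicle and 2.01, 0.838, 0.857, 1.46 and 0.880 FPKM with MaR1. In the kidney 4 of the 5 MaR1 rats lay close together and RB039 was well below them, while the hearts split into 5 at 1.46 FPKM or more and 5 at 1.15 FPKM or less. The 5 higher hearts were those with atrial Myl7, in both treatment groups. The MaR1 difference was -0.08 ± 0.16 in kidney (log2, SE; adjusted p = 0.963 by limma) and turned to 0.03 without RB039, and it was -0.13 ± 0.20 in heart (adjusted p = 1.00).

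Casp1, the protease that the inflammasome activates (chr8:2587831-2597383), had about as much spread in each kidney group. The kidneys held 4.18, 2.67, 4.06, 3.87 and 2.51 FPKM with vehicle and 3.52, 3.50, 3.85, 3.41 and 2.37 FPKM with MaR1. The hearts held 5.86, 5.34, 6.88, 6.37 and 5.32 FPKM with vehicle and 6.19, 6.90, 7.06, 5.09 and 5.03 FPKM with MaR1. Every heart was above every kidney, and in the kidney RB031, RB034 and RB039 were low. The MaR1 difference was -0.04 ± 0.16 in kidney (log2, SE) and 0.02 ± 0.11 in heart, and neither passed limma's test.

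Il1b, whose protein is the main secreted cytokine of the inflammasome (chr3:116577010-116583415), was near 1 FPKM in most libraries. The kidneys held 1.23, 1.18, 1.15, 1.06 and 0.465 FPKM with vehicle and 1.04, 1.97, 1.51, 0.875 and 0.662 FPKM with MaR1. The hearts held 1.32, 1.00, 0.481, 0.826 and 0.397 FPKM with vehicle and 1.52, 0.865, 0.697, 0.540 and 0.461 FPKM with MaR1. RB034 was low in both organs, and the highest kidney was RB036 and the highest heart RB035. The kidney difference with MaR1 was 0.15 ± 0.23 (log2, SE; adjusted p = 0.939 by limma) and was -0.0036 without RB034. In the heart, where it was below the filter, the exact permutation test over 252 regroupings gave p = 0.976.

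Il18, the second cytokine cut by caspase-1 (chr8:50906960-50932887), is made by epithelial cells as well as by macrophages. The kidneys held 4.69, 2.53, 3.11, 3.14 and 2.72 FPKM with vehicle and 3.25, 1.87, 2.93, 2.43 and 1.92 FPKM with MaR1. The hearts held 3.39, 1.66, 1.38, 3.14 and 1.55 FPKM with vehicle and 3.77, 2.42, 1.61, 1.87 and 1.76 FPKM with MaR1. In the kidney RB030 stood above the other vehicle rats and 3 of the MaR1 rats lay below all 5 of them, while in the heart RB030, RB033 and RB035 were high and the other 7 at 2.42 FPKM or less. The kidney mean was 3.24 ± 0.852 FPKM with vehicle and 2.48 ± 0.606 FPKM with MaR1 (SD, n = 5), a log2 difference of -0.32 ± 0.17 (SE) that did not pass (adjusted p = 0.755 by limma; exact permutation p = 0.135). The locus overlaps Bco2 and Tex12 on the other strand, at means of 0.430 and 0.263 FPKM, and whether the counting used strand is not stated.

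Il1rn encodes the receptor antagonist that blocks interleukin 1 (chr3:7111550-7127445). The kidneys held 2.03, 0.528, 1.06, 1.01 and 0.679 FPKM with vehicle and 1.46, 1.07, 1.13, 1.28 and 0.936 FPKM with MaR1. The hearts held 1.18, 0.930, 0.654, 0.960 and 0.931 FPKM with vehicle and 1.16, 0.404, 0.850, 0.839 and 0.492 FPKM with MaR1. RB030 had the highest value in each organ, and the vehicle kidneys spread further (CV 55.1%) than the MaR1 kidneys (CV 17.2%). The ratio of antagonist to agonist, Il1rn over Il1b, ran from 0.447 to 1.65 in the kidneys and from 0.467 to 2.35 in the hearts, and overlapped between the treatments in both. The Il1rn difference with MaR1 was 0.16 ± 0.22 in kidney (log2, SE; adjusted p = 0.922 by limma), and in the heart, below the filter, the exact permutation p was 0.246.

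Il1r1, the signalling receptor of interleukin 1 (chr9:42504735-42579937), was the member that differed most between the organs. The kidneys held 5.64, 2.38, 3.59, 3.72 and 2.33 FPKM with vehicle and 3.06, 2.68, 2.96, 2.52 and 2.44 FPKM with MaR1. The hearts held 14.6, 12.2, 11.7, 19.8 and 15.97 FPKM with vehicle and 19.9, 10.3, 11.4, 15.02 and 11.2 FPKM with MaR1. The vehicle kidneys ran from 2.33 to 5.64 FPKM and the MaR1 kidneys from 2.44 to 3.06 FPKM, inside that range. The MaR1 difference was -0.26 ± 0.19 in kidney (log2, SE; adjusted p = 0.831 by limma) and -0.14 ± 0.19 in heart (adjusted p = 1.00). Without RB030 the kidney value was -0.10.

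Tnf, the gene of tumor necrosis factor (chr20:3622011-3624629), was below the filter in both organs. The kidneys held 0.187, 0.209, 0.291, 0.146 and 0.114 FPKM with vehicle and 0.306, 0.450, 0.397, 0.161 and 0.0647 FPKM with MaR1. The hearts held 0.373, 0.594, 0.503, 0.517 and 0.388 FPKM with vehicle and 0.365, 0.406, 0.623, 0.712 and 0.541 FPKM with MaR1. The kidneys of RB036 and RB037 were the highest of their organ and that of RB039 the lowest, all 3 with MaR1. The exact permutation test gave p = 0.357 in kidney and p = 0.516 in heart. A level this low limits what could be seen: the kidney libraries held 3 to 20 fragments of the gene.

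Nfkb2 encodes p100, the precursor of the p52 subunit and the inhibitor of the noncanonical NF-kB pathway (chr1:245165950-245173213). It was the 1 member at an unadjusted limma p under 0.05 in kidney, 1 of 9 where 6.75% of all genes were. The kidneys held 13.5, 9.31, 10.2, 10.9 and 9.30 FPKM with vehicle and 9.61, 8.54, 8.69, 9.64 and 8.26 FPKM with MaR1. The hearts held 11.03, 11.2, 12.2, 12.7 and 11.3 FPKM with vehicle and 11.3, 10.4, 10.3, 10.95 and 10.6 FPKM with MaR1. In each organ most MaR1 rats lay at the low end of the vehicle range, with 3 of 5 kidneys and 4 of 5 hearts below all vehicle rats. The kidney mean was 10.7 ± 1.75 FPKM with vehicle and 8.95 ± 0.638 FPKM with MaR1 (SD, n = 5), a log2 difference of -0.23 ± 0.10 (SE) with an unadjusted limma p of 0.0414 and an adjusted p of 0.721. In the heart it was 11.7 ± 0.730 and 10.7 ± 0.433 FPKM, a log2 difference of -0.12 ± 0.06 with an unadjusted limma p of 0.0723 and an adjusted p of 1.00. The exact permutation p was 0.0476 in kidney and 0.0317 in heart. These 2 of the 20 exact tests (10 members, 2 organs) were under 0.05, unadjusted, against 6.28% of all genes in kidney and 5.12% in heart. The kidney difference was -0.14 ± 0.07 without RB030, where 9 kidneys remained, and -0.24 ± 0.15 without the 4 kidneys with urothelial transcripts. The latter fit kept only RB035 and RB037 of the MaR1 kidneys. With median-of-ratios or quantile scaling 0 members in kidney had an unadjusted limma p under 0.05. The count was also 0 without RB032, RB033, RB036, RB037 or RB039, and 1 or 2 without any other single rat. The kidney and heart results rest on the same rats.

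Nfkbia, the gene of IkB alpha, which holds NF-kB in the cytoplasm (chr6:72858712-72861941), had the highest level of all members. The kidneys held 32.9, 18.6, 22.2, 20.2 and 17.9 FPKM with vehicle and 24.7, 20.3, 29.2, 20.4 and 18.6 FPKM with MaR1. The hearts held 76.6, 44.5, 61.8, 57.2 and 61.3 FPKM with vehicle and 77.6, 68.2, 70.4, 64.9 and 53.1 FPKM with MaR1. RB030 was the highest kidney and the second highest heart, and RB039 was low in both organs. The MaR1 difference was 0.04 ± 0.17 in kidney (log2, SE; adjusted p = 0.991 by limma) and 0.16 ± 0.14 in heart (adjusted p = 1.00). In the 5 hearts without atrial transcripts it was -0.12.

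Tnfaip3, the gene of A20, an enzyme that removes ubiquitin from the receptor complexes and so brakes NF-kB (chr1:13709206-13725282), was at 1.01 to 3.02 FPKM. The kidneys held 3.02, 1.48, 1.56, 2.04 and 1.35 FPKM with vehicle and 1.92, 1.68, 1.81, 1.69 and 1.27 FPKM with MaR1. The hearts held 1.33, 1.87, 1.80, 1.68 and 1.88 FPKM with vehicle and 1.96, 2.03, 2.01, 1.35 and 1.01 FPKM with MaR1. The kidney of RB030 was the highest of all 20 libraries and every other library lay at 2.04 FPKM or less. The MaR1 difference was -0.10 ± 0.17 in kidney (log2, SE; adjusted p = 0.949 by limma), 0.05 without RB030, and -0.05 ± 0.16 in heart (adjusted p = 1.00).

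Markers of neighbouring tissue moved with the kidney groups, and their part in the members' values was not tested. All 5 urothelium markers tested had the higher mean under MaR1, each at an unadjusted p under 0.05 (background 6.75%), with a median log2 difference of 2.15 and sums of 0.432 to 4.903 FPKM with vehicle and 0.886 to 91.1 FPKM with MaR1. All 9 adipocyte markers were higher, 2 at that p, with a median of 1.57 and sums of 14.9 to 25.4 FPKM and 30.9 to 659 FPKM. Of 15 proximal tubule markers 11 were lower, 0 at that p, with a median of -0.26. Their summed level did not follow, at 5539 to 12041 FPKM with vehicle (median 9565) and 8762 to 12242 FPKM with MaR1 (median 10959). Inner medulla and thin limb markers numbered 10 among the genes tested, of which 9 had the higher mean under MaR1, 7 of them at that p. Their summed level was 451 to 687 FPKM with vehicle and 553 to 763 FPKM with MaR1. All 8 podocyte markers were lower, 5 at that p, with sums of 92.8 to 134 FPKM with vehicle and 63.7 to 96.5 FPKM with MaR1. Macrophage markers summed to 206 to 371 FPKM with vehicle and 214 to 380 FPKM with MaR1, with 12 of 14 tested higher and 0 at that p. None of the markers in these 6 lists passed the adjusted threshold in limma.

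**Figure D2:**
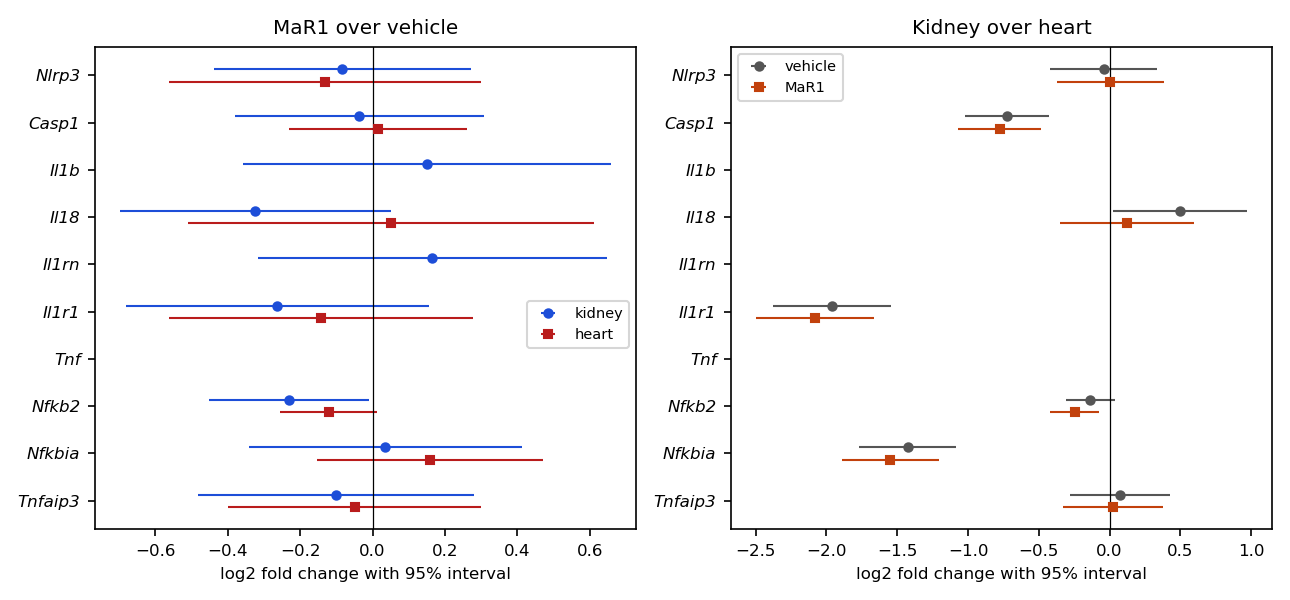
Log2 fold change with its 95% interval (horizontal axes) for each member that reached the filter. The left panel shows MaR1 over vehicle in kidney (circles) and heart (squares), where every interval but that of Nfkb2 in kidney (-0.45 to -0.01, unadjusted) spans 0, and the right panel shows kidney over heart in vehicle (circles) and MaR1 rats (squares), where Il1r1, Nfkbia and Casp1 lie left of 0.

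Whether the response differed between the organs was tested as the heart response minus the kidney response. In limma 0 of 7 members passed, as did 0% of all 12984 genes, and 0 of 7 had an unadjusted p under 0.05, against 5.5% of all genes (714). The widest difference among members was that of Il18, at 0.37 ± 0.32 (log2, SE; adjusted p = 0.990), and that of Nfkb2 was 0.11 ± 0.12.

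The organs differed far more than the treatments. In vehicle rats limma called 3 of the 7 members tested, all 3 lower in kidney, against a background of 78.6% of 12984 genes called, 37.8% lower and 40.9% higher in kidney. Il1r1 was 14.8 ± 3.26 FPKM in heart and 3.53 ± 1.34 FPKM in kidney, 3.90-fold higher in heart on the log2(FPKM + 0.5) scale (difference -1.96 ± 0.20, SE; adjusted p = 2.11e-08 by limma). Nfkbia was 60.3 ± 11.5 and 22.3 ± 6.14 FPKM, 2.69-fold higher in heart (adjusted p = 1.25e-07 by limma). Casp1 was 5.96 ± 0.673 and 3.46 ± 0.802 FPKM, 1.65-fold higher in heart (adjusted p = 9.93e-05 by limma). All 5 vehicle rats had the higher value in heart for these 3 genes, and the groups did not overlap, as for 65.9% of all genes.

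Il18 went the other way. It was higher in the kidney in 5 of 5 vehicle rats, with a log2 difference of 0.50 ± 0.23 (SE) and an adjusted limma p of 0.0519. In RB033 the organs were all but equal (3.14 FPKM in each). The vehicle groups overlapped, at 2.53 to 4.69 FPKM in kidney and 1.38 to 3.39 FPKM in heart. With the rat as a block the adjusted p was 0.0421, which passes. Nlrp3 (-0.04 ± 0.18) and Tnfaip3 (0.08 ± 0.17) differed by less than their error. Nfkb2 was -0.14 ± 0.08 with an adjusted limma p of 0.140, and without RB030 it was -0.24 with an adjusted p of 0.00452. Without that rat 5 members were called in place of 3, Il18 (adjusted p = 0.0441 by limma) being the other. With every rat kept 78.6% of all genes were called. Il18 also passed without RB033 (adjusted p = 0.0329 by limma) and without RB035 (adjusted p = 0.0319).

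In MaR1 rats 4 of 7 members were called, all lower in kidney, against 78.5% of all genes called, 38.1% lower and 40.4% higher in kidney. They were Il1r1 (-2.08 ± 0.20, log2, SE), Nfkbia (-1.55 ± 0.16), Casp1 (-0.78 ± 0.14) and Nfkb2 (-0.25 ± 0.08; adjusted p = 0.011 by limma). The Nfkb2 difference was the smallest of the 4, and scaling to assigned fragments was not tried. The 5 kidneys lay below the 5 hearts without overlap for these 4 genes, as for 66.8% of all genes. Il18 was 0.12 ± 0.23 here and was higher in the kidney in 3 of 5 rats.

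The 3 members below the joint filter were read from the fit without a filter. Tnf was lower in kidney in vehicle rats by 0.50 on the log2 scale (a difference of -0.50 ± 0.13, SE; adjusted p = 0.00271 by limma), with 0.114 to 0.291 FPKM in kidney and 0.373 to 0.594 FPKM in heart. In MaR1 rats the Tnf difference was -0.42 ± 0.13 (adjusted p = 0.00913), with 1 rat higher in kidney. Il1b (0.23 ± 0.25 in vehicle and 0.38 ± 0.25 in MaR1 rats) and Il1rn (0.06 ± 0.20 and 0.45 ± 0.20) did not pass in limma. Without RB031 Il1rn reached the joint filter and passed in MaR1 rats (0.45, adjusted p = 0.0428 by limma).

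Other cell types moved with the organ, and their part in these differences was not tested. Of 15 macrophage markers tested 11 passed as lower in kidney in vehicle rats, against 37.8% of all 12984 genes. Their sums were 206 to 380 FPKM over the 10 kidneys and 314 to 727 FPKM over the 10 hearts. Fibroblast markers summed to 151 to 309 FPKM in kidney and 1007 to 2853 FPKM in heart, and endothelial markers to 83.3 to 117 and 376 to 514 FPKM.

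The kidney of RB030, a vehicle rat, was the highest of the 10 kidneys for 8 of the 10 members. The share of all genes that were highest in it was not counted, so whether the members stand out cannot be told. It held 2.11 times the median of the other 9 kidneys for Il1r1, 1.91 times for Il1rn, 1.80 times for Tnfaip3, 1.72 times for Il18, 1.62 times for Nfkbia and 1.46 times for Nfkb2. Nlrp3 and Casp1 were 1.34 and 1.20 times the median. In Il1b (1.23 FPKM) and Tnf (0.187 FPKM) it was exceeded by RB036 and others. The same kidney had the lowest sum of 15 proximal tubule markers, 5539 FPKM against 8462 to 12242 FPKM in the others. It also held 106 FPKM of Havcr1, the gene of kidney injury molecule 1, against 21.4 to 51.9 FPKM. Its T cell marker sum was 10.1 FPKM against 3.72 to 8.03 FPKM, and its macrophage marker sum, 371 FPKM, was second to another kidney (380 FPKM). Its sums were also the highest for fibroblast markers (309 FPKM against at most 307 FPKM) and blood cell markers (73.9 FPKM against at most 66.9 FPKM). What part these had in its values was not tested. Its heart was not set apart in the same way, being highest for Il1rn alone.

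Across the 10 kidneys 21 of the 45 pairs of members were correlated past the test. Correlations were computed on log2(FPKM + 0.5) for all 45 pairs, with permutation p-values adjusted over the 45. The median r was 0.69, and r was positive in 43 pairs. An r of at least 0.7 was reached by 21 of the 45 pairs, against 6.55% of all pairs of the 12446 genes that reached the filter, and without RB030 by 5 of the 45, against 6.27%. With group means removed 29 pairs passed the test, and without RB030 2 did, with a median r of 0.55. Among the pairs that no longer passed without that rat, Casp1 with Il1r1 went from r = 0.76 to 0.83 and Casp1 with Tnfaip3 from 0.75 to 0.81 (permutation adjusted p = 0.1001 for both over 9 kidneys). The lowest r over the 10 kidneys was that of Tnf with Nfkb2 (-0.17), and Il1b with Il18 had r = 0.03. Without RB031 or RB034 11 pairs passed each, and without any other single rat 14 to 23.

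The 2 pairs that passed with any single rat left out were Nlrp3 with Casp1 and Il1b with Tnf. Nlrp3 and Casp1, sensor and protease of one complex, had r = 0.94 (rho 0.93; permutation adjusted p = 0.0018 and 0.0099), and r was 0.93 without the 2 kidneys farthest from the median of Nlrp3. Each was closer still to a gene outside that complex, Nlrp3 to Rac2 (r = 0.97) and Casp1 to Tgfb1 (r = 0.97). Among the 11285 named genes searched, Casp1 came next after Rac2 for Nlrp3, while Elk3 and Srd5a3 followed Tgfb1 for Casp1. What part cell content had in this pair was not tested. Il1b and Tnf, the pair of classical macrophage cytokines, had r = 0.85 (rho 0.79; permutation adjusted p = 0.0183 and 0.0492), and r = 0.82 without the 2 farthest kidneys. Il1b with Nfkb2 had r = 0.05. Among the 3 NF-kB genes with shown promoters, r in kidney was 0.84 for Tnfaip3 with Nfkb2, 0.81 for Tnfaip3 with Nfkbia and 0.55 for Nfkb2 with Nfkbia. The last of these pairs did not pass (permutation adjusted p = 0.142). Without the 2 kidneys farthest from the median of the gene named first, r was 0.32, 0.55 and 0.07 in that order. Without RB030 it was 0.52, 0.60 and -0.02, and none of these pairs passed. Whether the promoter matches bear on these values was not tested.

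In the hearts 0 of 45 pairs passed by Pearson's r, with a median r of 0.17 and a positive r in 30 pairs. At most 2 passed when a single rat was left out, RB030 or RB031. Nlrp3 and Casp1 had r = -0.35 there and Il1b and Tnf r = -0.42. Whether the kidney and heart correlations differ was not tested. Il1b with Il18 had r = 0.81 (permutation adjusted p = 0.123) and r = 0.52 without the 2 farthest hearts. Nlrp3 and Il1r1 passed by rank correlation (permutation adjusted p = 0.0045), but the hearts form a high and a low set of 5 in Nlrp3, and the relation was not tested within these sets.

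**Figure D3:**
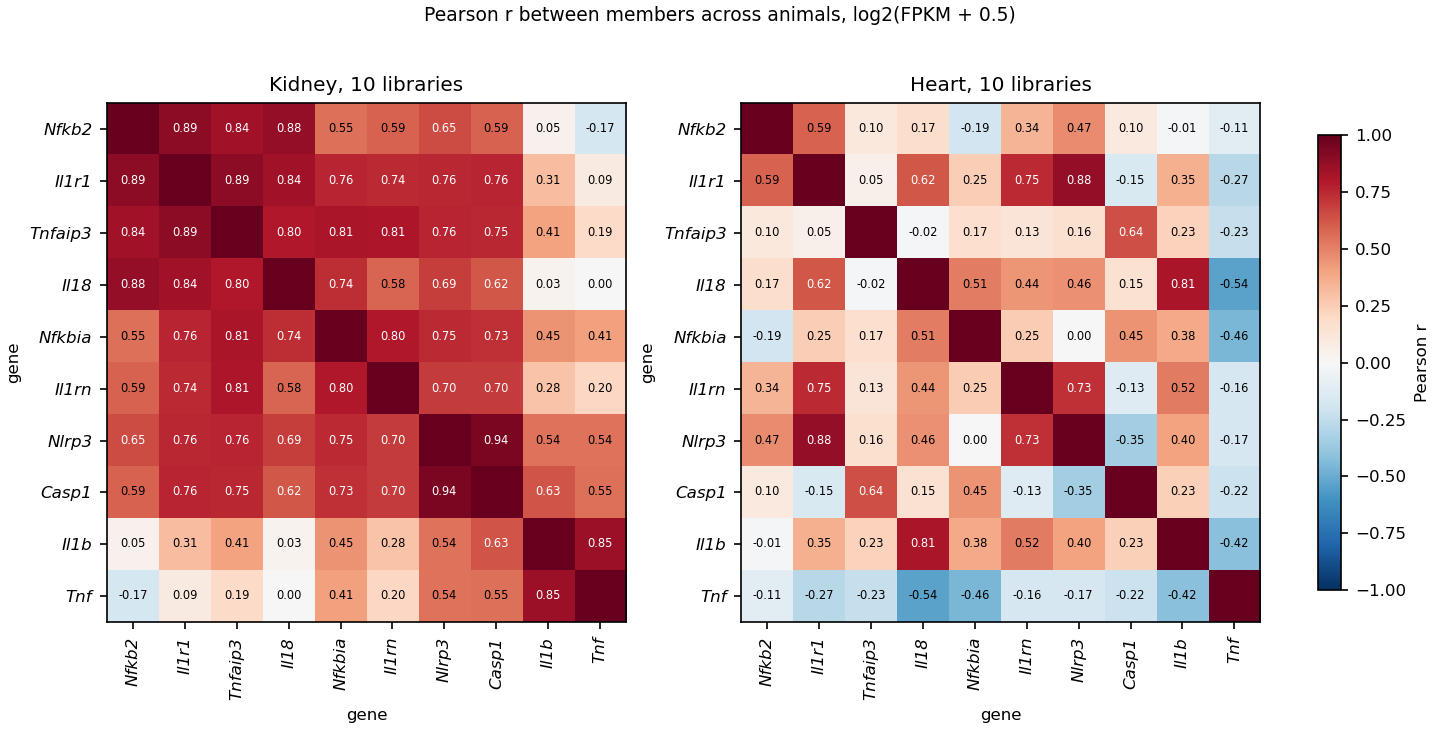
Pearson r of log2(FPKM + 0.5) between the members across 10 kidneys (left) and 10 hearts (right), with genes on both axes and colour from -1 (blue) to 1 (red). In kidney the block of 8 genes without Il1b and Tnf is red throughout, with 21 of the 45 pairs past the test, and in heart 0 pairs passed.

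The high and low hearts in Nlrp3 matched the presence of atrial transcripts. The 5 hearts with Myl7 at 151 to 784 FPKM held 1.46 to 2.01 FPKM of Nlrp3, and the 5 without held 0.838 to 1.15 FPKM. Il1r1 ran from 12.2 to 19.9 FPKM in the former and from 10.3 to 14.6 FPKM in the latter. The fibroblast marker sum was 1438 to 2853 FPKM with atrial transcripts and 1007 to 1476 FPKM without. Casp1, at 5.09 to 6.37 and 5.03 to 7.06 FPKM, overlapped widely. These sets were made after the data were seen and are described without a test. The share of all genes that separate them was not counted, so whether Nlrp3 stands out cannot be told. Because 3 of the 5 vehicle hearts and 2 of the 5 MaR1 hearts held atrial transcripts, the heart comparison was also run without them, and 0 members were called. That fit held 2 vehicle and 3 MaR1 hearts. The full heart comparison had itself called 0% of all 12237 genes, so a count of 0 here carries no information on atrial content.

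Each rat gave both organs, so a member's level could be followed from kidney to heart across 10 rats. Of the 10 members 0 passed by Pearson's r after adjustment over the 10. Nfkbia came nearest, with r = 0.72 (permutation p = 0.0175, adjusted p = 0.111) and rho = 0.84 (adjusted p = 0.0381), and r = 0.71 without the 2 rats farthest from the kidney median. Casp1 had r = 0.73 (permutation adjusted p = 0.111) and rho = 0.65 (adjusted p = 0.201), which fell to r = 0.55 without RB034 and RB039. With group means removed r was 0.75 for Nfkbia and 0.73 for Casp1. Nfkb2 had r = 0.49 over 10 rats, and r = 0.94 over the 9 rats without RB030 (permutation adjusted p = 0.0048). With group means removed its r over 10 rats was 0.12. The lowest r were those of Tnf (-0.12), Nlrp3 (-0.06) and Tnfaip3 (-0.04).

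**Figure D4:**
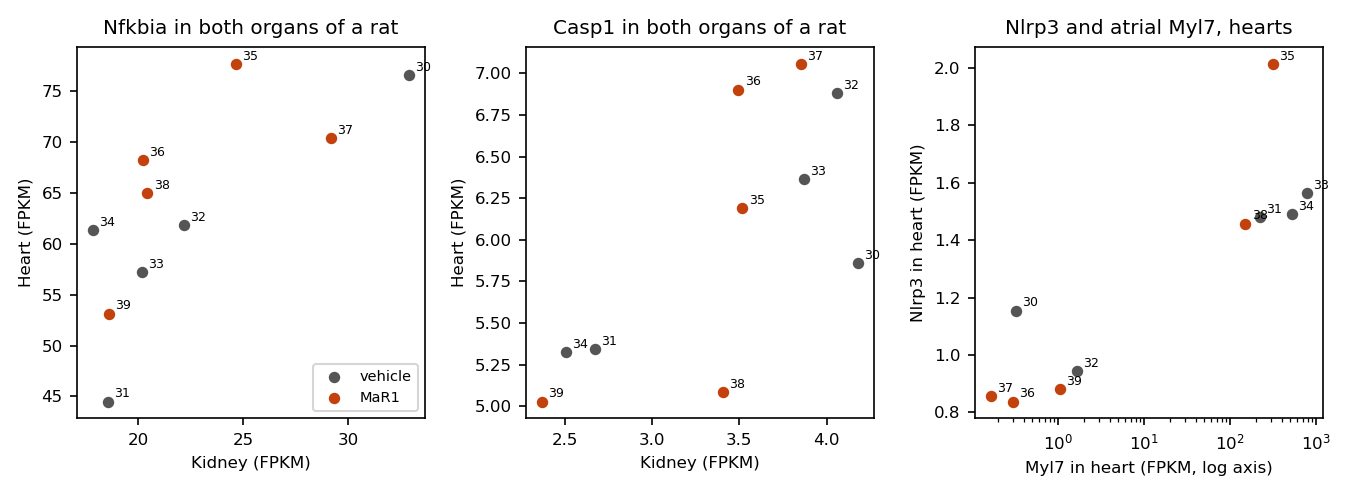
The left and middle panels plot the heart level against the kidney level of Nfkbia and Casp1 in FPKM, each point a rat labelled with the last 2 digits of its number and coloured by treatment. The right panel plots Nlrp3 in FPKM against Myl7 in the 10 hearts (log axis), where the 5 hearts above 100 FPKM of Myl7 lie at 1.46 FPKM of Nlrp3 or more and the other 5 at 1.15 FPKM or less. How many other genes separate these hearts was not counted.

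The wider pathway was read from 10 lists of 128 genes, from inflammasome parts to NF-kB targets. In kidney 93 were tested in the MaR1 comparison and 0 passed, with 30 higher and 63 lower and a median log2 difference of -0.07 (all genes 0.00). At an unadjusted p under 0.05 were 8 of the 93 in limma, 1 higher and 7 lower, near the 6.75% of all genes. By the naming rule, the lower ones included the channel gene Panx1 (-0.49 ± 0.15, log2, SE; adjusted p = 0.654), Ninj1, whose product ruptures the membrane in pyroptosis (-0.25 ± 0.10), the NF-kB subunit Rela (-0.16 ± 0.07), the adaptor Tirap (-0.19 ± 0.08), the A20 partner Tnip3 (-0.40 ± 0.17) and the target gene Lif (-0.43 ± 0.15), besides Nfkb2. The higher one was the target gene Tnfaip2 (0.75 ± 0.34; adjusted p = 0.737). Of the 5 NF-kB subunits tested 4 were lower, Relb at -0.25 ± 0.15, with a list median of -0.16. Of the inflammasome list 12 of 17 were lower, while the adaptor Pycard was at 0.26 ± 0.15.

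In heart 88 of the 128 were tested and 0 passed, with 47 higher and 41 lower and a median of 0.00 (all genes 0.01). At an unadjusted p under 0.05 was 1 gene of the 88, against 4.6% of all genes. It was Irak3, a kinase-like inhibitor of interleukin 1 receptor signalling (0.30 ± 0.12, log2, SE; adjusted p = 1.00 by limma). Of the 5 NF-kB subunits tested 4 were lower, with a list median of -0.01. Nfkb1 (-0.003 ± 0.09) and Rel (-0.01 ± 0.11) differed from 0 by less than their error. Rela, which was lower in kidney, was higher here at 0.11 ± 0.10. Between the organs, 90 were tested in vehicle rats, of which 32 passed as higher and 29 as lower in kidney, against the 78.6% of all genes called.

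The genes most like each member were found by Pearson's r over the 10 libraries of an organ, among 11285 named genes in kidney and 11116 in heart, and are given as a description. In kidney Nlrp3 was closest to Rac2 (r = 0.97), a small GTPase of blood cells, and Casp1 to Tgfb1 (r = 0.97). Il1b was closest to C3ar1, the complement C3a receptor (r = 0.95), and Nfkbia to the myeloid gene Ly86 (r = 0.96). Il1r1 was closest to Klhl5 (r = 0.98), Tnfaip3 to Gpx2 (r = 0.97), Nfkb2 to the protease gene Adamts4 (r = 0.96), Il1rn to Slc66a3 (r = 0.93) and Il18 to Srrm2 (r = 0.92). All of these but C3ar1 were highest in the kidney of RB030, as was the member each was closest to. C3ar1 and Il1b were both highest in that of RB036. A choice by highest r favours such shared peaks, so they add nothing on RB030. In heart Nlrp3 was closest to C1qtnf2 (r = 0.99), Il1r1 to Kdelr3 (r = 0.98), Nfkb2 to Sp140 (r = 0.96), Nfkbia to Gtf2ird1 (r = 0.94), Il18 to Cdk4 (r = 0.92), Tnfaip3 to Asb13 (r = 0.91) and Casp1 to Akr1c14 (r = 0.81). Of the 7 members searched in both organs, 0 had the same nearest gene in both, while Il1b and Il1rn were searched in kidney alone and Tnf in neither.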

How the data were processed

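Poly-A RNA of 20 libraries was sequenced, and the authors deposited FPKM for 30560 genes with Ensembl identifiers. Per the submitters' processing notes, fastp (version not given), HISAT2 2.0.5, StringTie 1.3.3b and featureCounts 1.5.0-p3 were used. Gene coordinates are those of the table, whose build was not given. Multiplying deposited FPKM by length returned whole fragments, to within 0.01, for 100% of 371175 non-zero values. For a 1 kb gene 1 FPKM equals 19.7 to 34.9 fragments. The lowest library held 3 fragments of Tnf and 17 of Il1b and of Il1rn, so counting error is largest for these 3. No library copied another (chi-square per degree of freedom at least 9.57 over 190 pairs).

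Members, gene lists (267 of 278 symbols matched, 96.0%) and tests were chosen with earlier results of these data known. Values were tested as log2(FPKM + 0.5), which understates changes of low genes, for genes with a mean of at least 1 FPKM, with limma 3.58.1 in R 4.3.3 (variance trend, two-sided, Benjamini-Hochberg over all genes, threshold 0.05). Each organ was fitted alone for MaR1, and all 20 libraries together for organ contrasts and the difference of responses. Single members had exact two-sided permutation tests (smallest p 0.00794), and correlations 100000 permutations. Replicates are separate rats.

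Kidney and heart share a rat by their labels, so the rat number pairs them. Same-rat correlations of deviations from group means over 12984 genes ran from -0.02 to 0.14, 2 of 10 being over 0.1, and the fit with the rat as block estimated a correlation of 0.0621 with statmod. It is given beside a result where it changed the call. Named genes were all members, up to 3 genes of smallest p per pathway list and organ, and the 1 gene of highest r to each tested member. Of these, those past an unadjusted p of 0.05 and a few others are named. Slc34a1, Myl2, Myl7, Adipoq and Havcr1 were chosen after their values were seen. Motif matches and promoter windows come from RefSeq GRCr8. Alternatives were pseudocounts of 0.1 and 1, no filter, a mean of at least 5 FPKM, median-of-ratios and quantile scaling, limma voom on fragments, the block, and leaving out each rat. Median-of-ratios scaling left the counts unchanged for the difference of responses (714 genes at an unadjusted p under 0.05). The same held between organs in vehicle rats (10211 genes called), so it gives no separate check there. The steps were tested on simulated data. Python 3.11.15 and matplotlib 3.10.9 drew the figures. No gene was manipulated, so treatment labels could not be checked.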

Additional observations from a re-analysis of the deposited data

Results flagged for a closer look

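Within the 40 groups of 5 libraries (10 members, 2 organs, 2 treatments), 4 held a library far from the other 4 by Dixon's test, where chance gives about 1 in 20. Nlrp3 was 0.717 FPKM in the MaR1 kidney of RB039 and 1.25 to 1.38 FPKM in the others of its group. Il1b was 0.465 FPKM in the vehicle kidney of RB034, against 1.06 to 1.23 FPKM. Il18 was 4.69 FPKM in the vehicle kidney of RB030, against 2.53 to 3.14 FPKM, and Nfkbia was 32.9 FPKM in the same kidney, against 17.9 to 22.2 FPKM. All 4 are kidneys.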

How the results depend on the processing

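No setting brought a member past the threshold for MaR1 in either organ or for the difference of responses, and Il1r1, Nfkbia and Casp1 stayed lower in kidney with each single rat left out. All genes called came to 0 to 1 in kidney and 0 to 3 for the difference of responses when single rats were left out, and 1 for the latter at a pseudocount of 0.1. Without RB035 it was 3 and without RB039 also 3. At an unadjusted p under 0.05 the kidney count of 840 was 555 without RB033, 486 without RB038 and 1757 without RB039, the heart count of 563 was 956 without RB035, and the 714 for the difference of responses were 464 without RB038 and 1233 without RB039. Members called between organs in vehicle rats were 3 to 5 with single rats left out, beside 10211 of 12984 genes with every rat kept. They were 4 without a filter, where 13012 of 23499 genes were called. They were also 4 with the rat as replicate block, where all genes called came to 10276 in vehicle and 10285 in MaR1 rats. With this pairing no other member's call than that of Il18 changed. Single members under an exact p of 0.05 were 0 to 1 in each organ, correlated pairs 2 to 23 in kidney and 0 to 2 in heart with single rats left out (29 and 0 with group means removed), and members correlated between organs 0 to 1 (Nfkb2, without RB030).

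Several uncalled differences changed sign, all with small values. With single rats left out, the MaR1 difference in kidney ran from -0.16 to 0.028 for Nlrp3, -0.13 to 0.064 for Casp1, -0.0036 to 0.28 for Il1b, -0.18 to 0.049 for Tnfaip3 and -0.059 to 0.18 for Nfkbia, and in heart from -0.040 to 0.073 for Casp1, -0.12 to 0.20 for Il18 and -0.12 to 0.074 for Tnfaip3. The difference of responses ran from -0.18 to 0.068 for Nlrp3, -0.019 to 0.12 for Casp1, -0.046 to 0.26 for Il1r1 and -0.17 to 0.16 for Tnfaip3. Kidney over heart ran from -0.17 to 0.064 for Nlrp3 and -0.14 to 0.19 for Tnfaip3 in vehicle rats, and from -0.11 to 0.14 for Nlrp3, -0.020 to 0.23 for Il18 and -0.032 to 0.085 for Tnfaip3 in MaR1 rats. Without RB030 and RB039 (chosen after seeing the data) the kidney values were 0.11 for Nlrp3, 0.13 for Casp1 and 0.12 for Tnfaip3, and Casp1 was 0.012 without the 4 kidneys with urothelial transcripts. Without hearts with atrial transcripts (also chosen after seeing the data) the values were -0.019 for Casp1, -0.17 for Il18, 0.051 for Tnfaip3 and -0.12 for Nfkbia, and with those transcripts as a term Casp1 was -0.015. Quantile scaling gave 0.030 for Nlrp3 in the difference of responses, and in MaR1 rats -0.12 for Nlrp3 and -0.084 for Tnfaip3 between organs, where Nlrp3 was -0.012 with limma voom and -0.00019 at a pseudocount of 1. The cause of these changes was not tested.

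Depth limits Tnf most, with 3 to 26 fragments a library, then Il1b and Il1rn. With 5 rats a group, the intervals of the MaR1 differences reach 0.13 to 0.56 on the log2 scale to each side, depending on the gene.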
